A study of Mus musculus with 4 samples.

Results

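The NR4A genes Nr4a1 (Nur77), Nr4a2 (Nurr1) and Nr4a3 (Nor1) encode the subfamily of orphan nuclear receptors, and all 3 were found by symbol among the 53379 mouse gene identifiers of the count table and passed the filter on low counts, as 18422 genes did. They were singled out with the diet difference of these same libraries in view, so that difference is described here and not tested. Macrophages had been sorted as positive for CD45, CD11b and F4/80 from MC38 tumours, a mouse colon carcinoma line grafted into C57BL/6J mice, on day 21 after implantation. The groups were mice fed a control diet and mice fed a high-fat diet, with 2 libraries each, 1 per mouse, and both diets shared the strain, the tumour line, the day and the sort. Diet composition, feeding time, sex and age were not given in the sources used here. The comparison asks how macrophage transcripts in a tumour differ with the diet of the host.

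NR4A receptors are transcription factors with a ligand pocket largely filled by side chains, and their activity is known to be set mainly by how much of them is made. They are immediate early genes: cyclic AMP, calcium, growth factors and Toll-like receptor ligands switch them on within a short time through CREB, MEF2 and NF-kB. Nr4a1 and Nr4a2 bind DNA as monomers, as pairs of each other or with retinoid X receptors, whereas Nr4a3 is not known to pair with the latter. In myeloid cells they are known for damping inflammatory gene expression, and Nr4a1 is needed for the patrolling type of monocyte.

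Since CREB acts on these genes through the cyclic AMP response element (CRE), the bases before each start are shown with the 5-base CRE core, CGTCA or its reverse complement on either strand, in capitals. Sequences and start sites are those of RefSeq on GRCm38.p6, read 5' to 3' on the strand of the gene. The window was the 250 bases before the start, which is chr15:101266596-101266845 on the plus strand for Nr4a1, in an intron of its longer transcript Nr4a1-202, and chr2:57124004-57124253 on the minus strand for Nr4a2. For Nr4a3, on the plus strand, 152 of the 250 bases lie in the first exon as GENCODE release M21 annotates it, and only the bases before that exon, chr4:48045055-48045152, are printed.
Nr4a1: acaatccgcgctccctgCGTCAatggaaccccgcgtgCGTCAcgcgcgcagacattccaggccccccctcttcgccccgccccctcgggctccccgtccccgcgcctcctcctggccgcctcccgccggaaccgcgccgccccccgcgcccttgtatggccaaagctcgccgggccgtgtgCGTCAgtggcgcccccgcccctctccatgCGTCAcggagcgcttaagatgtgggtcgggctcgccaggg
Nr4a2: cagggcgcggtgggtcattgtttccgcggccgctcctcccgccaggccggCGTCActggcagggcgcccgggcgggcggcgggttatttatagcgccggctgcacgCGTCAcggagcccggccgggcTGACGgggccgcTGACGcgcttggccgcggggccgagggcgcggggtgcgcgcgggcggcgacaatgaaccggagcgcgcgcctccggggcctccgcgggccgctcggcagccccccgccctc
Nr4a3: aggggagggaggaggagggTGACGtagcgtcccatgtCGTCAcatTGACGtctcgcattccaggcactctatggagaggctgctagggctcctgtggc

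Each of the 3 windows held 4 CRE cores. In Nr4a1 they began 233, 213, 69 and 40 bases before the start, and all read CGTCA on the strand of the gene. Those of Nr4a2 began 200, 144, 123 and 111 bases before it, the first pair on the gene's strand and the other two on the opposite strand. In Nr4a3 they began 231, 213, 205 and 147 bases before the RefSeq start, the last of them inside the annotated first exon and therefore given by position only. Of 32851 mouse promoter windows of the same length, 17.8% held at least 1 core and 45 (0.137%) held 4 or more, a number picked after the matches were seen. The 3 windows were rich in G and C, at 74.4% for Nr4a1, 80.0% for Nr4a2 and 63.6% for Nr4a3, against a median of 52.4% over all windows. Among the 9178 windows with at least 60% GC, 0.37% held 4 or more cores.

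**Figure D1:**
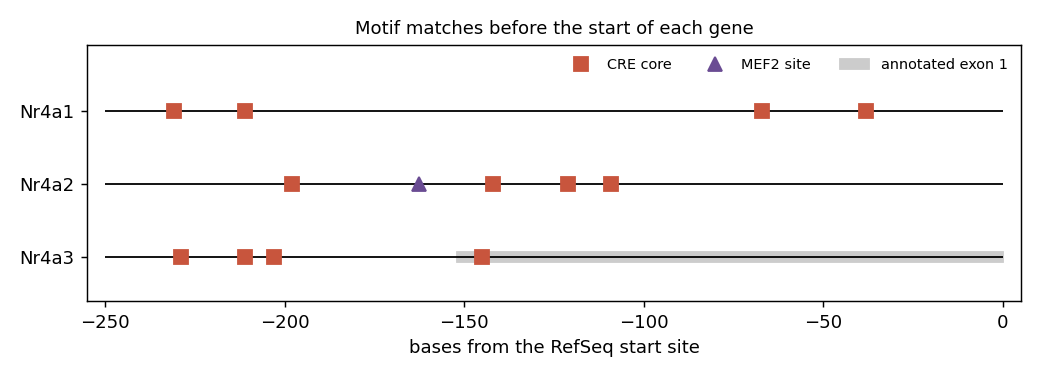
Motif matches in the 250 bases before the RefSeq start of each NR4A gene, with the distance from the start in bases on the horizontal axis. Squares mark the 4 CRE cores of each gene, the triangle the MEF2 site of Nr4a2, and the grey bar the 152 bases of Nr4a3 that lie in its annotated first exon.

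The full palindrome TGACGTCA, which contains the core on both strands, was in none of the 3 windows and in 1.55% of all. Nor did they hold the NBRE AAAGGTCA, the element that NR4A monomers bind (1.34% of all windows), a CArG box (1.47%), a kappaB site (7.25%) or the AP-1 site TGANTCA (6.75%), each searched on both strands. Nr4a2 alone of the 3 had a match to the MEF2 site, which 2.92% of all windows held. Its match ran from 167 to 158 bases before the start. These matches describe letters in the windows and were not measured as binding.

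The 3 genes lie on different chromosomes and have similar coding parts. Nr4a1 (ENSMUSG00000023034.6) lies on chromosome 15 from 101254269 to 101274795, where release M21 holds a later version of the identifier than the count table, Nr4a2 (ENSMUSG00000026826.13) on chromosome 2 from 57106830 to 57124003, and Nr4a3 (ENSMUSG00000028341.9) on chromosome 4 from 48045153 to 48086447 (all GRCm38). Nr4a1-201 encodes 601 residues, Nr4a2-201 encodes 598 and Nr4a3-201 encodes 627. The longest annotated transcripts measure 2553, 3568 and 5720 bases. No other annotated gene overlaps any of them in release M21.

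Nr4a1, the most abundant member, had 44221 counts in control-diet mouse 1 and 22810 in control-diet mouse 2, against 10206 and 9914 in high-fat-diet mice 1 and 2. As CPM, the counts relative to the scaled total of each library, this was 1363 and 613 CPM with the control diet and 273 and 258 CPM with the high-fat diet. Both high-fat-diet libraries lay below both control-diet libraries, and the control-diet mice differed from each other 2.22-fold. The means were 988 ± 530 CPM with the control diet and 265 ± 10.03 CPM with the high-fat diet (SD, n = 2), which as a log2 fold change is -1.90 (SE 0.37). Without control-diet mouse 1 it was -1.20. In these bulk libraries, fewer cells that express a gene and less of its RNA per cell cannot be told apart.

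Nr4a2, known for its part in dopamine neurons and for restraining inflammatory genes in microglia, had 23767 and 16486 counts in control-diet mice 1 and 2 and 1606 and 1536 in high-fat-diet mice 1 and 2. These were 733 and 443 CPM with the control diet and 42.9 and 40.0 CPM with the high-fat diet. The lowest control-diet library stood 10.3-fold above the highest high-fat-diet library, a gap wider than the 1.65-fold difference between the control-diet mice. On average the level was 588 ± 205 CPM with the control diet and 41.5 ± 2.02 CPM with the high-fat diet (SD, n = 2), or -3.83 on the log2 scale (SE 0.28).

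Nr4a3, the member with the widest gap between diets, had 11959 and 7389 counts in control-diet mice 1 and 2 and 327 and 306 in high-fat-diet mice 1 and 2. In CPM it stood at 369 and 199 with the control diet and 8.73 and 7.97 with the high-fat diet, so that every ratio of a control-diet to a high-fat-diet mouse fell between 22.7 and 46.2. The control-diet mice differed 1.86-fold. The means were 284 ± 120.2 CPM with the control diet and 8.35 ± 0.536 CPM with the high-fat diet (SD, n = 2), or -5.08 on the log2 scale (SE 0.35), which is 33.9-fold lower. Genes were also ordered by log2 fold change from the lowest. Nr4a3 stood at place 5, Nr4a2 at 18 and Nr4a1 at 90 among the 10312 tested genes whose log2 CPM averaged 3 or more. Among all 18422 tested genes the places were 234, 442 and 1255. This order uses the contrast on which the members were chosen, and is description only.

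In all 3 members both high-fat-diet libraries lay below both control-diet libraries. This was so in 31.6% of all 18422 genes tested, with the reverse in 32.2%, and nothing is read from the count because the members were chosen on this contrast. In each member the control-diet mouse 1 held the highest level. Within the high-fat diet the members differed between mice by 1.05-fold for Nr4a1, 1.07-fold for Nr4a2 and 1.10-fold for Nr4a3.

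**Figure D2:**
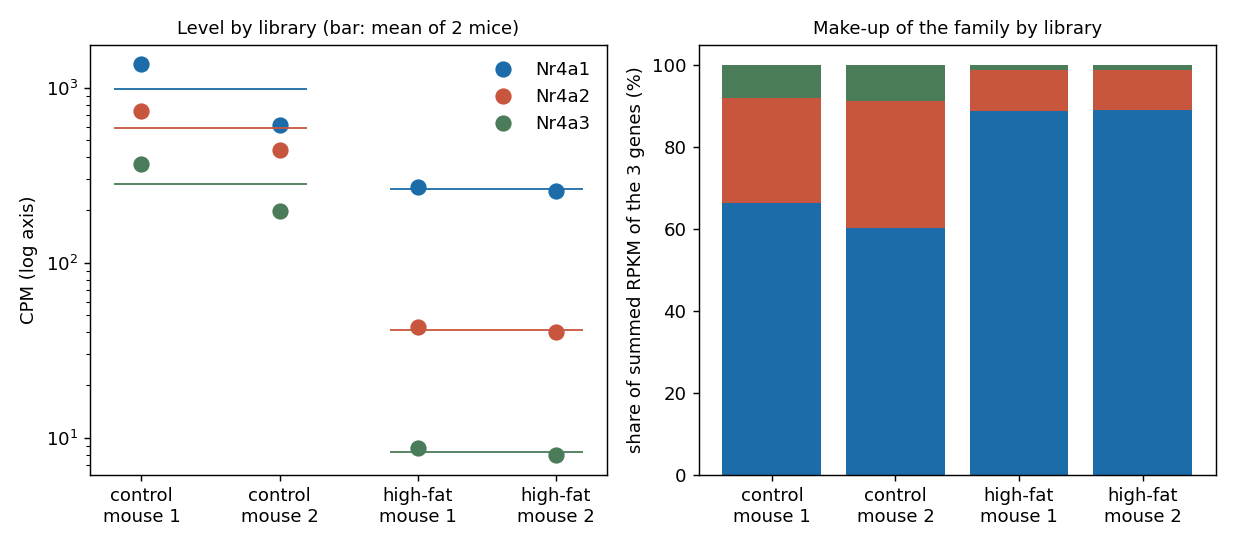
Left, CPM of Nr4a1, Nr4a2 and Nr4a3 in each of the 4 libraries on a log axis, with a bar at the mean of the 2 mice of a diet. Right, the share of each gene in the summed level per length of the 3 genes, with Nr4a1 at 60.2 to 66.4% in the control-diet and 88.7 to 88.9% in the high-fat-diet libraries.

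Levels of different genes were compared per length, as RPKM, the CPM divided by the kilobases of the longest annotated transcript. The order was Nr4a1, then Nr4a2, then Nr4a3 in each of the 4 libraries. Nr4a1 had 534 and 240.2 RPKM in control-diet mice 1 and 2, and 107 and 101.2 RPKM in high-fat-diet mice 1 and 2. Nr4a2 had 205 and 124 RPKM with the control diet and 12.02 and 11.2 RPKM with the high-fat diet. For Nr4a3 the levels were 64.4 and 34.7 RPKM with the control diet and 1.53 and 1.39 RPKM with the high-fat diet. Within a diet, the ranges of neighbouring members in this order did not overlap.

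The make-up of the family differed between diets along with its sum. Summed over the members, the level was 804 and 399 RPKM with the control diet and 120.3 and 114 RPKM with the high-fat diet. Nr4a1 made up 66.4 and 60.2% of this sum in control-diet mice 1 and 2, and 88.7 and 88.9% in high-fat-diet mice 1 and 2. Nr4a3 made up 8.02 and 8.70% with the control diet and 1.27 and 1.22% with the high-fat diet. The ratio of Nr4a1 to Nr4a3 in RPKM was 8.28 and 6.92 in the control-diet mice and 69.9 and 72.6 in the high-fat-diet mice. Nr4a2 made up 25.5 and 31.1% with the control diet and 9.99 and 9.86% with the high-fat diet. For each member, the shares of the 2 diets did not overlap.

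Other nuclear receptors gave the family its setting. Of 46 other mouse nuclear receptor genes, 26 were tested, and with the members they made 29 receptors ordered by RPKM. Nr4a1 was the most abundant of them in each of the 4 libraries. Nr4a2 came second in both control-diet libraries and at places 10 and 11 in the high-fat-diet libraries. Nr4a3 was at places 4 and 5 with the control diet and at place 22 with the high-fat diet in both mice. Together, the members made up 68.9 and 58.7% of the summed receptor RPKM with the control diet, and 32.4 and 28.5% with the high-fat diet.

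**Figure D3:**
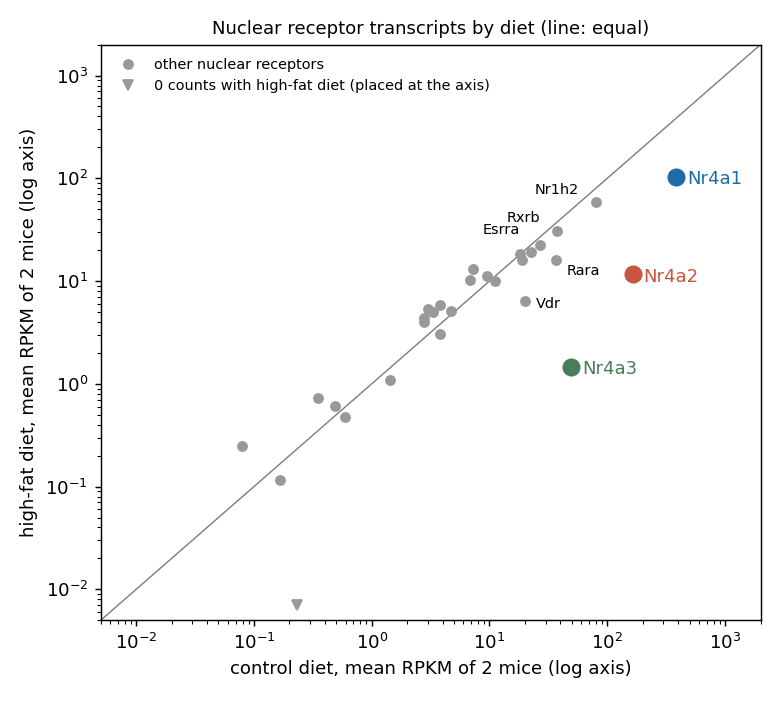
Mean RPKM of the 29 tested nuclear receptors with the control diet (horizontal) and the high-fat diet (vertical), both on log axes, with a line at equal levels. The 3 NR4A genes lie below the line, farthest for Nr4a3, and the triangle is Hnf4a, which had 0 counts with the high-fat diet.

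A gene is called here at an adjusted p below 0.05 in edgeR's quasi-likelihood test of high-fat against control diet, and 7.91% of all tested genes were called lower and 2.61% higher, 10.5% in all. Of the 26 other receptors, 2 (7.69%) were called lower and 0 higher, a share near that of all genes. At an unadjusted p below 0.05 there were 3 lower and 8 higher, and DESeq2 called 3 lower and 4 higher. DESeq2 was run without the filter on low counts, and over all genes it called 1844 lower and 1056 higher. Shares of all genes were not computed at the unadjusted threshold or for DESeq2. Counts of both kinds, here and for the lists below, are therefore given as description only. The median log2 fold change of the 26 other receptors was -0.07, against 0.00 over all genes tested. Without high-fat-diet mouse 1 this median turned to 0.01. Both high-fat-diet libraries lay below both control-diet libraries in 8 of the 26, against 31.6% of all genes, and above in 9, against 32.2%.

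The 2 called receptors differed in abundance. Vdr, the vitamin D receptor, fell from 86.8 ± 46.6 CPM with the control diet to 28.0 ± 1.42 CPM with the high-fat diet (log2 fold change -1.63, SE 0.36, edgeR adjusted p = 0.0421). With no filter on low counts Vdr lost its call (edgeR adjusted p = 0.176). Without control-diet mouse 1 its log2 fold change was -0.94, and leaving out high-fat-diet mouse 1 or 2 ended the call (adjusted p = 0.316 and 0.255). Hnf4a, a receptor of epithelial cells of gut and liver, had 16 and 57 counts in control-diet mice 1 and 2 and 0 in both high-fat-diet mice (edgeR adjusted p = 0.0332). Hnf4a thus passed the filter on low counts through the control-diet libraries only, and could not have been called higher. Set against 3 counts over the high-fat-diet libraries together, it was at least 26.5-fold lower, a bound that covers counting error only. Against control-diet mouse 1 alone the bound was 12.5-fold, and against mouse 2 alone 38.7-fold. Its call ended without either high-fat-diet mouse (adjusted p = 0.0786 and 0.0751).

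The 4 other receptors of highest RPKM, by the mean over the 4 libraries, were not called. Nr1h2, the liver X receptor beta, had 59.4 ± 7.81 RPKM with the high-fat diet and 79.7 ± 15.7 RPKM with the control diet (edgeR adjusted p = 0.192). Rxrb, a retinoid X receptor and a pairing partner of NR4A proteins, had 30.4 ± 3.42 and 37.3 ± 1.22 RPKM (adjusted p = 0.227). Rara, the retinoic acid receptor alpha, had 15.9 ± 0.213 and 36.4 ± 20.3 RPKM (adjusted p = 0.0879). Esrra, an orphan receptor of mitochondrial genes, had 22.3 ± 2.99 and 26.9 ± 4.59 RPKM (adjusted p = 0.346).

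Stimulus-induced genes, which the same signals switch on as the NR4A genes, were called lower in 18 of 38 members (47.4%) and higher in 1, with a median log2 fold change of -0.79. Over all genes tested, 7.91% were called lower and 2.61% higher. In 27 of the 38 both high-fat-diet libraries lay below both control-diet libraries, against 31.6% of all genes, and in 5 both lay above, against 32.2%. Crem, which encodes a CREB relative that CREB itself induces, fell from 83.5 and 61.9 CPM in control-diet mice 1 and 2 to 8.55 and 10.7 CPM in high-fat-diet mice 1 and 2 (log2 fold change -2.92, SE 0.22, edgeR adjusted p = 0.00557). Pde4b, the phosphodiesterase that breaks down cyclic AMP, fell 5.35-fold from 326 ± 78.2 to 60.9 ± 0.106 CPM (adjusted p = 0.00637). Gadd45b, a stress-induced gene, fell 5.25-fold from 287 ± 67.1 to 54.7 ± 5.12 CPM (adjusted p = 0.00658). Arc, a gene induced by activity in neurons, fell 18.8-fold from 35.7 ± 3.93 to 1.90 ± 0.191 CPM (adjusted p = 0.00416). The other 14 lower calls had log2 fold changes from -2.46 to -0.76.

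Not all early genes shared this direction. Rgs1, a brake on G-protein signalling, rose from 477 ± 263 CPM with the control diet to 1520 ± 36.8 CPM with the high-fat diet (log2 fold change 1.67, SE 0.38, edgeR adjusted p = 0.0438). Leaving out high-fat-diet mouse 1 or 2 ended its call (adjusted p = 0.245 and 0.181), as did dropping the filter on low counts (0.092). Without control-diet mouse 2 its log2 fold change was 2.38. Fos and Dusp1, picked after their values were seen as early genes of high level, were not called. Fos had 2773 ± 69.8 CPM with the high-fat diet and 1858 ± 276 CPM with the control diet (adjusted p = 0.0901). Dusp1 had 1492 ± 119 and 1104 ± 30.6 CPM (adjusted p = 0.13). The count of lower calls was 8 without high-fat-diet mouse 1, and the 4 named genes that fell were called without any 1 library.

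Upstream signalling genes, a list of kinases, phosphatases, factors and repressors that act on NR4A genes in either direction, were called lower in 5 of 35 members (14.3%) and higher in 0. For all genes tested the shares were 7.91% and 2.61%. DESeq2 called 7 lower and 1 higher, and at an unadjusted edgeR p below 0.05 there were 10 and 2. Their median log2 fold change was -0.10. Both high-fat-diet libraries lay below both control-diet libraries in 14 of the 35, against 31.6% of all genes, and above in 6, against 32.2%. Crebbp and Ep300, the acetyltransferases that CREB recruits, fell from 198 ± 10.5 to 103 ± 3.03 CPM (edgeR adjusted p = 0.0204) and from 314 ± 26.7 to 177 ± 9.72 CPM (adjusted p = 0.0309). The CREB coactivator gene Crtc3 fell from 125 ± 22.3 to 66.4 ± 2.88 CPM (adjusted p = 0.0314). Hdac5 and Hdac4, which hold MEF2 silent, fell 1.84-fold and 1.67-fold (adjusted p = 0.0372 and 0.0403). Leaving out high-fat-diet mouse 1 ended all 5 calls (adjusted p of 0.109 to 0.227), and so did leaving out mouse 2 of that diet (0.0981 to 0.197). For Hdac4 the same was true of control-diet mouse 1 (0.0571).

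Partners and coregulators are proteins that pair with or bind NR4A factors. Of 19 tested genes, 1 (5.26%) was called lower and 0 higher, a share near the 7.91% of all genes called lower. Both high-fat-diet libraries lay below both control-diet libraries in 14 of the 19, against 31.6% of all genes. Both lay above in 2, against 32.2%. The median log2 fold change of the list was -0.30. DESeq2 also called 1 lower and 0 higher, and at an unadjusted edgeR p below 0.05 there were 4 and 1. The called gene was Ncoa3, a steroid receptor coactivator, which fell from 296 ± 23.1 to 178 ± 11.7 CPM, or by 0.74 on the log2 scale (SE 0.15, adjusted p = 0.0375). Its call ended without either high-fat-diet mouse (adjusted p = 0.259 and 0.156) and when libraries were scaled by total counts only (0.0501). The retinoid X receptor genes Rxra and Rxrb were both tested and not called, and Rxrg was too low to test.

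Genes reported elsewhere to respond to NR4A factors, in muscle, nerve, lymphocytes or macrophages, were tested in 19 of 28 cases, and 4 (21.1%) were called lower and 0 higher. The shares over all genes tested were 7.91% and 2.61%. Both high-fat-diet libraries lay below both control-diet libraries in 10 of the 19, against 31.6% of all genes, and above in 4, against 32.2%. The median log2 fold change of these targets was -0.49. DESeq2 called 7 lower and 0 higher, and at an unadjusted edgeR p below 0.05 there were 9 and 3. Pygm, the muscle glycogen phosphorylase, fell from 32.3 and 26.4 CPM in control-diet mice 1 and 2 to 0.427 and 0.573 CPM in high-fat-diet mice 1 and 2 (log2 fold change -5.86, SE 0.26, adjusted p = 0.00416). Bcl2l11, which encodes the death factor BIM, fell 2.41-fold from 187 ± 24.3 to 77.6 ± 0.967 CPM (adjusted p = 0.0139). Cdkn1a, the cell cycle inhibitor p21, fell 2.72-fold (adjusted p = 0.0317) and Cd36, a fatty acid carrier, fell 2.85-fold (adjusted p = 0.0414).

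Of these, the call of Pygm held without any 1 library. Leaving out either high-fat-diet mouse ended those of Cdkn1a and Cd36 (adjusted p of 0.0903 to 0.259), and that of Bcl2l11 was lost without high-fat-diet mouse 2 (0.0576). Cd36 also lost its call with total-count scaling (0.0502) and with no filter on low counts (0.0589), and its log2 fold change was -0.91 without control-diet mouse 2. Of the 15 tested genes not called, 3 had a log2 fold change below -2, picked here after their values were seen. Fasl, the death ligand of T and NK cells, had 137 and 34 counts in control-diet mice 1 and 2 and 11 and 14 in the high-fat-diet mice (adjusted p = 0.0634). Ccr7, a homing receptor of dendritic cells and lymphocytes, had 976 and 316 counts against 110 and 216 (adjusted p = 0.076). Ucp3, a mitochondrial carrier of muscle, had 43 and 31 counts against 9 and 2 (adjusted p = 0.0538). In Fasl and Ccr7, control-diet mouse 1 stood far above control-diet mouse 2. The 3 uncalled targets that were higher at an unadjusted edgeR p below 0.05 were Pfkm, Foxp3 and Ikzf2. Their log2 fold changes were 0.46, 0.96 and 0.59.

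**Figure D4:**
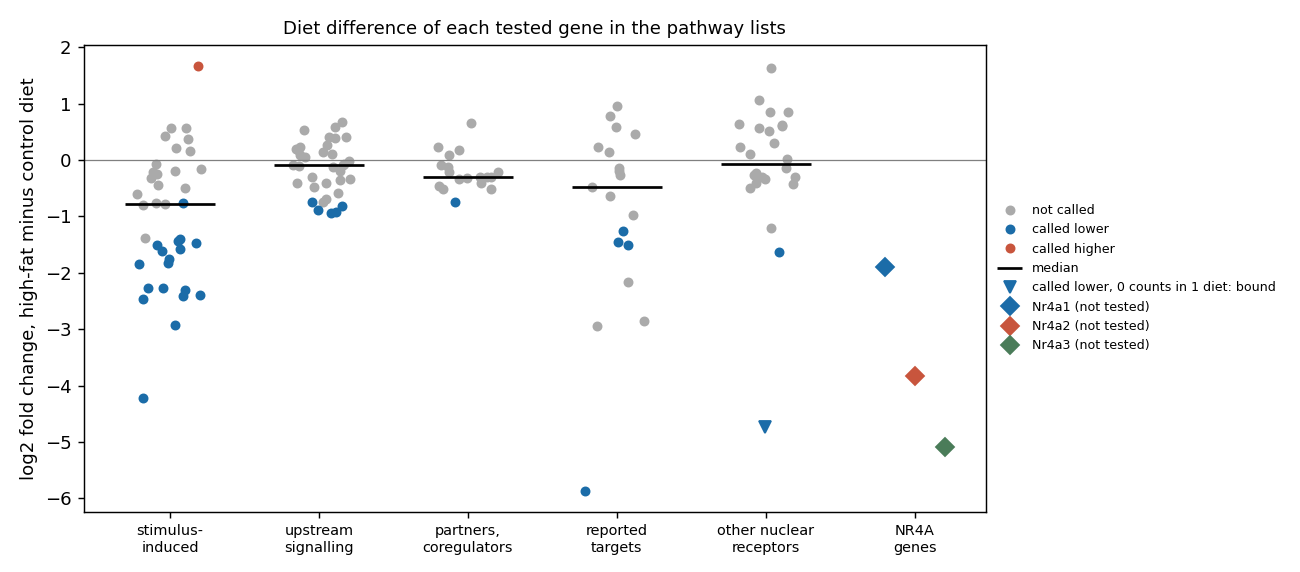
Log2 fold change, high-fat minus control diet, of each tested gene of the pathway lists, coloured by its call at an adjusted p below 0.05, with a bar at the median of each list. The 3 NR4A genes, at -1.90, -3.83 and -5.08, are shown beside them without a test, and the triangle places Hnf4a at its bound.

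Genes on both sides of each member were read as well. Grasp, which encodes a scaffold for membrane receptors, ends 21.5 kb before the GENCODE start of Nr4a1 at 101254269. That start lies upstream of the RefSeq start used for the promoter window. Grasp fell from 108 ± 47.2 to 19.8 ± 1.75 CPM, or by 2.45 on the log2 scale (SE 0.31, edgeR adjusted p = 0.0144). Its call ended without either high-fat-diet mouse (adjusted p = 0.11 and 0.0817). On the other side, 9.48 kb past Nr4a1, the autophagy gene Atg101 had 34.9 ± 6.97 CPM with the control diet and 21.5 ± 3.10 CPM with the high-fat diet (adjusted p = 0.0747). Gpd2, the mitochondrial glycerol phosphate dehydrogenase, lies 114 kb upstream of Nr4a2 and fell from 90.4 ± 19.6 to 50.4 ± 0.492 CPM (adjusted p = 0.0414), a call that ended without control-diet mouse 1 (0.0513) and without either high-fat-diet mouse (0.196 and 0.161). Kcnj3, the nearest coding gene on the other side of Nr4a2 at 1509 kb, had 0 counts in each library.

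Around Nr4a3 the neighbours were not called. Stx17, a fusion factor of autophagosomes that starts 38.5 kb past Nr4a3, had 31.9 ± 3.83 CPM with the high-fat diet and 25.5 ± 0.180 CPM with the control diet (edgeR adjusted p = 0.206). Sec61b, a subunit of the protein channel of the endoplasmic reticulum, lies 562 kb upstream and had 20.9 ± 3.59 and 18.3 ± 0.932 CPM (adjusted p = 0.513).

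The members were also compared with all other coding genes by pattern, as the root mean square difference between log2 CPM profiles over the 4 libraries, each centred on its own mean, among 9317 genes above the same level. For Nr4a1 the nearest were Gpr132, a receptor of immune cells (difference 0.04), Tiam1, an activator of Rac (0.05), Gm14548 (0.07) and Arhgap26 (0.10). Gpr132 had 295 and 138 CPM in control-diet mice 1 and 2 and 63.2 and 58.7 CPM in the high-fat-diet mice. Nr4a2 lay nearest to S100a9 (0.18) and S100a8 (0.26), alarmins of neutrophils and monocytes, then Plekhg6 (0.28) and Arc (0.29). For Nr4a3 they were Ildr1 (0.36), Plekhg6 (0.38), Pygm (0.46) and Arc (0.49). The level asked for was an average log2 CPM of 3. These nearest genes of Nr4a2 and Nr4a3 stood below it in both high-fat-diet libraries, at 0.427 to 2.75 CPM. Gm14548 did too, at 5.93 and 5.06 CPM. All of these reached the level through the control-diet libraries only. Nr4a2 was at place 8 for Nr4a3, and Nr4a3 at place 16 for Nr4a2, at a difference of 0.62. Nr4a1 lay farther from them: in its own order, Nr4a2 came at place 4818 (difference 1.01) and Nr4a3 at place 9180 of 9317 (1.62). In the reverse direction, Nr4a1 came at place 74 in the order of Nr4a2 and at place 80 in that of Nr4a3. The profiles were centred but not scaled, so the difference also grows with unequal fold changes. Those were -1.90 for Nr4a1, -3.83 for Nr4a2 and -5.08 for Nr4a3 on the log2 scale. Distances of Nr4a1 from the other members therefore do not show an unlike shape. This likeness rests on 4 libraries and describes the size and shape of the differences between them, not level. It reuses the diet difference on which the members were chosen, and was not tested.

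**Figure D5:**
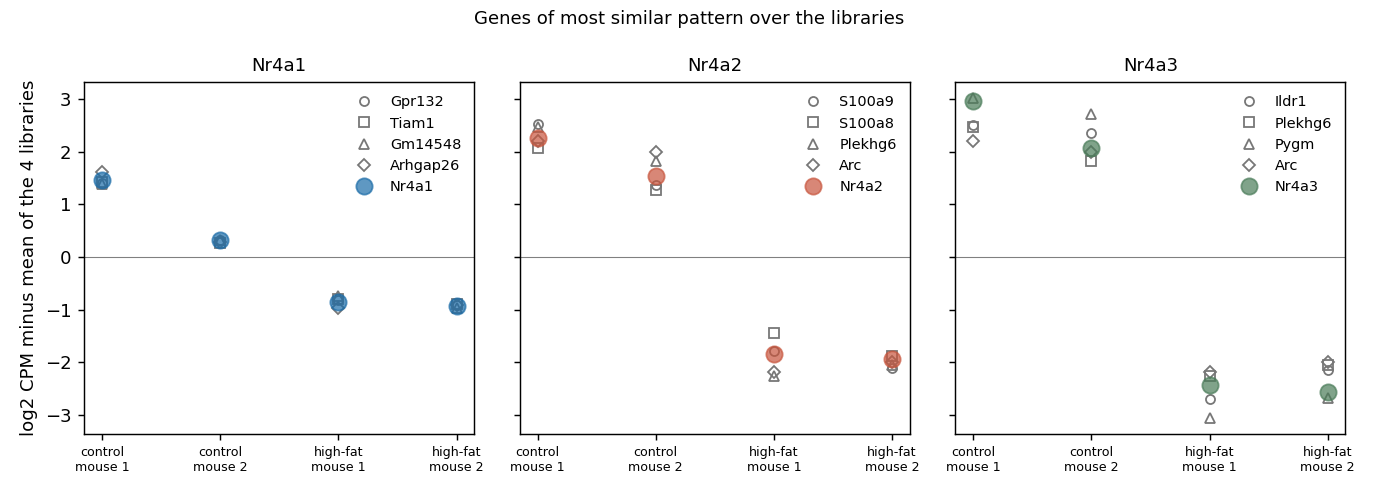
Log2 CPM minus the mean over the 4 libraries for each NR4A gene (filled) and its 4 nearest genes in pattern (open). Control-diet mouse 1 is highest in each panel's NR4A gene, and the high-fat-diet mice lie close together.

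The sorted cells carried macrophage transcripts, and markers of other cells were read beside the members. Each count of edgeR calls below stands against 7.91% called lower and 2.61% higher among all genes tested. Of 14 macrophage markers, the sort genes Ptprc, Itgam and Adgre1 among them, edgeR called 0, with 1 higher by DESeq2 and 2 higher and 1 lower at an unadjusted p below 0.05. Their summed level was 17387 to 18312 CPM with the high-fat diet and 15495 to 18201 CPM with the control diet. Markers of patrolling monocytes, the type that needs Nr4a1, were called lower in 3 of 9 (Ace, Itgal and Pglyrp1) and higher in 1 (Pou2f2), named after their values were seen, and summed to 1641 to 1733 CPM with the high-fat diet and 1638 to 1860.5 CPM with the control diet. Ace stood at 104 and 7.31 CPM in control-diet mice 1 and 2, against 1.47 and 1.72 CPM in the high-fat-diet mice. Dendritic cell markers were lower in 2 of 10 (145 to 169 against 127 to 230 CPM) and T and NK cell markers in 1 of 17 (62.8 to 64.3 against 48.0 to 179 CPM), where DESeq2 called 4 and 2 lower. The edgeR share of the T and NK list, 5.88%, was near that of all genes.

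Neutrophil and mast cell markers were lower in 6 of 10 tested (94.9 to 96.0 CPM with the high-fat diet against 145 to 355 CPM), with Ly6g at 0 counts in both high-fat-diet libraries. Ly6g could therefore pass the filter on low counts only through the control-diet libraries. Epithelial markers were lower in 6 of 7 (39.5 to 46.0 against 116 to 158 CPM), and fibroblast markers were higher in 7 of 10 (2263 to 2286 against 870 to 1159 CPM). Among all genes tested, edgeR called 7.91% lower and 2.61% higher. DESeq2, run without the filter on low counts, could draw on all 12 neutrophil and mast cell, 8 epithelial and 10 fibroblast markers. It called 8 neutrophil and mast cell markers and 8 epithelial markers lower and 9 fibroblast markers higher. The share of all genes that DESeq2 called was not computed, so its counts are description only. Control-diet mouse 1 held more of the T and NK list than control-diet mouse 2, with a median log2 ratio of 1.81, as it held more of each NR4A gene (2.22-fold, 1.65-fold and 1.86-fold). For the neutrophil and mast cell list the median log2 ratio was 1.43, and for the dendritic list 1.25. For the epithelial list it was -1.94. The stimulus-induced list had 0.49, the patrolling monocyte list 0.40, the fibroblast list 0.39 and the macrophage list -0.09. The part of these cell types in the NR4A difference was not tested.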

How the data were processed

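RNA of 4 libraries was analysed, 2 per diet. The deposited table held raw counts per gene, whole and not normalised, with 34148682 to 37159552 counts per library. BWA 0.7.12, cutadapt 1.15, DESeq2 1.24.0 and FastQC 0.11.5 are named, without roles, in the submitters' processing notes, as are GRCm38 and mm10. The counting tool, whether it used strand, how it treated reads shared between genes and its gene models were not given in the sources used here. Columns of no listed sample numbered 0.

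Symbols were matched by identifier for 53274 of 53379 identifiers, and positions and lengths came from GENCODE M21 (GRCm38). Genes passing edgeR's filterByExpr (minimum count 10, minimum total 15; 18422 genes) were fitted with edgeR 4.0.16 in R 4.3.3, with TMM scaling, robust dispersions, the quasi-likelihood test and no term but diet. Benjamini-Hochberg adjustment ran over all genes tested. CPM and RPKM use the TMM-scaled library size. The step was tested on simulated data. Alternatives were other scalings, no filter, DESeq2 1.42.0 (also without the filter), a replicate block and leaving out each library.

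The members and lists were chosen with earlier results of these data known. Named genes are the members, the neighbours on each side, the 4 most similar genes per member, the called genes of each list (at most 4 per direction in smallest p where a list has over 5), and the 4 most abundant other receptors. Protein sequences were not used here. The titles name separate mice, so p-values rest on the spread between 2 mice per diet. Each gene's dispersion was moderated toward the trend over all genes, so that spread is partly borrowed from other genes. SE is the absolute log2 fold change divided by the square root of edgeR's F statistic.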

Additional observations from a re-analysis of the deposited data

How the results depend on the processing

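Other scalings, no filter on low counts, the DESeq2 test and the replicate block kept the direction of each NR4A gene, with log2 fold changes of -1.91 to -1.78 for Nr4a1, -3.84 to -3.75 for Nr4a2 and -5.10 to -5.005 for Nr4a3. Fits without 1 library gave -2.36 to -1.20, -4.14 to -3.41 and -5.46 to -4.57. Per length, the union of exons moved the high-fat-diet levels to 75.6 RPKM for Nr4a1 and 10.2 RPKM for Nr4a2. The control-diet means moved by the same factors, from 387 to 282 RPKM and from 165 to 145 RPKM. The choice of length therefore leaves the ratio between diets as it was, and the order of the members held.

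Over all genes, 480 were called higher and 1457 lower; with no filter on low counts there were 1552 and 2231, and DESeq2 called 1056 higher. Without 1 library the counts ran from 71 to 1934 higher and from 300 to 2534 lower. In the stimulus-induced list, calls higher were 2 with no filter and 2 by DESeq2. In the upstream list calls higher were 1 with total-count scaling, 2 with no filter and 1 by DESeq2, and 8 were lower with no filter. Among partners, no filter gave 1 higher and 2 lower, and total-count scaling 0 lower. DESeq2 called 7 reported targets lower. For other receptors, calls higher were 3 with total-count scaling, 7 with no filter, 4 by DESeq2 and 1 with the replicate block. Without 1 library, the calls higher and lower ran from 0 to 5 and 8 to 24 for stimulus-induced genes, 0 to 4 and 0 to 9 for upstream genes, 0 to 1 and 0 to 2 for partners, 0 to 1 and 1 to 7 for targets, and 0 to 6 and 0 to 4 for other receptors.

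Of the 19 called genes named from the pathway lists and as neighbours, leaving out mouse 1 of the high-fat diet ended 13 calls, and leaving out its mouse 2 ended 14. No direction among the 19 reversed. The called cell type markers were not run singly. Same-numbered mice are different animals, and their deviations from the diet means correlated at -0.19 over 10312 genes. The replicate block ended none of the 19 calls. A fit without 1 library takes each gene's own spread from the other diet's pair, so the lone mouse is assumed to vary like them. The cause of these moves was not tested.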
